A study of Sus scrofa with 10 samples.

Results

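Genes of the proteasome were described in pig morulae, early embryos at the stage of compacting cells. The members are the 38 gene names that begin with PSMA to PSMG and a number, of 24358 genes listed, with 73 of the 47421 listed isoforms. No name occurred more than once, and the members lie on 12 chromosomes. Of these, 37 are proteasome genes and the other one, PSMC3IP, shares the pattern only: its product is known in mouse as a meiotic recombination factor. A level of at least 1 FPKM (fragments counted relative to transcript length and library size) on average over the 10 libraries was required for a test, and 33 of the 37 proteasome genes and PSMC3IP passed it.

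All embryos came from porcine matured oocytes that were injected with siRNA, activated parthenogenetically, so without sperm, and grown to morulae. The DDB1_KD group received siRNA against DDB1, the adaptor of the CUL4 ubiquitin ligase, and the NC group a non-specific siRNA, with 5 total RNA libraries in each. The labels give no strain, animal age, dose or number of pooled embryos. They do not tell whether replicates were cultured apart or drawn from different oocyte pools, so the p-values measure the spread between libraries, which may be technical. In pools of whole embryos, fewer cells of a kind and less RNA per cell cannot be told apart.

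The proteasome degrades proteins that carry ubiquitin chains. Its core particle is a barrel of rings of alpha subunits, which form the gate, and rings of beta subunits, of which PSMB5, PSMB6 and PSMB7 carry the catalytic sites. The regulatory particle on the end of the barrel binds ubiquitin, removes it and feeds the unfolded substrate through a ring of ATPases. Other activators can replace that particle, and dedicated chaperones assemble the rings. In early embryos the ubiquitin and proteasome system is known to take part in the removal of maternal proteins.

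The libraries held 32466912 to 50911295 estimated counts over 13522 to 14755 genes with a count. DDB1 (ENSSSCG00000013094) had 0.920, 1.30, 1.28, 1.30 and 1.55 FPKM in DDB1_KD replicates 1 to 5 and 3.59, 3.12, 2.53, 3.15 and 4.44 FPKM in NC replicates 1 to 5, so the groups did not overlap. Its fitted log2 fold change was -1.39 (SE 0.28), the smallest p of all genes tested in edgeR's quasi-likelihood test and an adjusted p of 0.977. None of the 8476 genes tested passed an adjusted p of 0.05 (0%), and 245 had an unadjusted p under 0.05 (2.89%). Of the embryo markers, 11 of the 12 on the list were found, and 4 of 10 tested had a higher and 6 a lower value in DDB1_KD. None was at 0 in all libraries, but GATA3 had no count in DDB1_KD replicate 2, where KRT8 had 14 counts. Their summed level was 299 to 758 FPKM in DDB1_KD and 468 to 948 FPKM in NC. Cumulus cell markers (8 of 9 found, FSHR and AMH at 0 in every library) summed to at most 1.22 FPKM, and leukocyte markers (7 of 7 found, 1 tested) to at most 4.76 FPKM. Oocyte markers (11 of 12 found, 9 tested, 9 with a higher value in DDB1_KD, none at 0 in all libraries) summed to between 11.9 and 386 FPKM in DDB1_KD and between 23.0 and 107 FPKM in NC.

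Proteasome genes were among the more abundant and less variable transcripts of the morula. The median of their mean levels over the 10 libraries was 39.9 FPKM against 5.70 FPKM for all genes tested, and 32 of 33 lay above the latter. The fitted biological coefficient of variation between libraries of a group had a median of 26.8% for the proteasome genes and 38.8% for all genes, and 29 of 33 lay below the latter. These values were not matched on level. Levels ran from 3.64 FPKM for PSMD3 to 567 FPKM for PSMB7, both of which are known as constitutive subunits. The class medians were 123 FPKM for the alpha ring, 350 FPKM for the beta ring, 28.1 FPKM for the ATPase ring, 47.3 FPKM for the other regulatory particle members and 11.9 FPKM for the activators and the inhibitor.

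**Figure D1:**
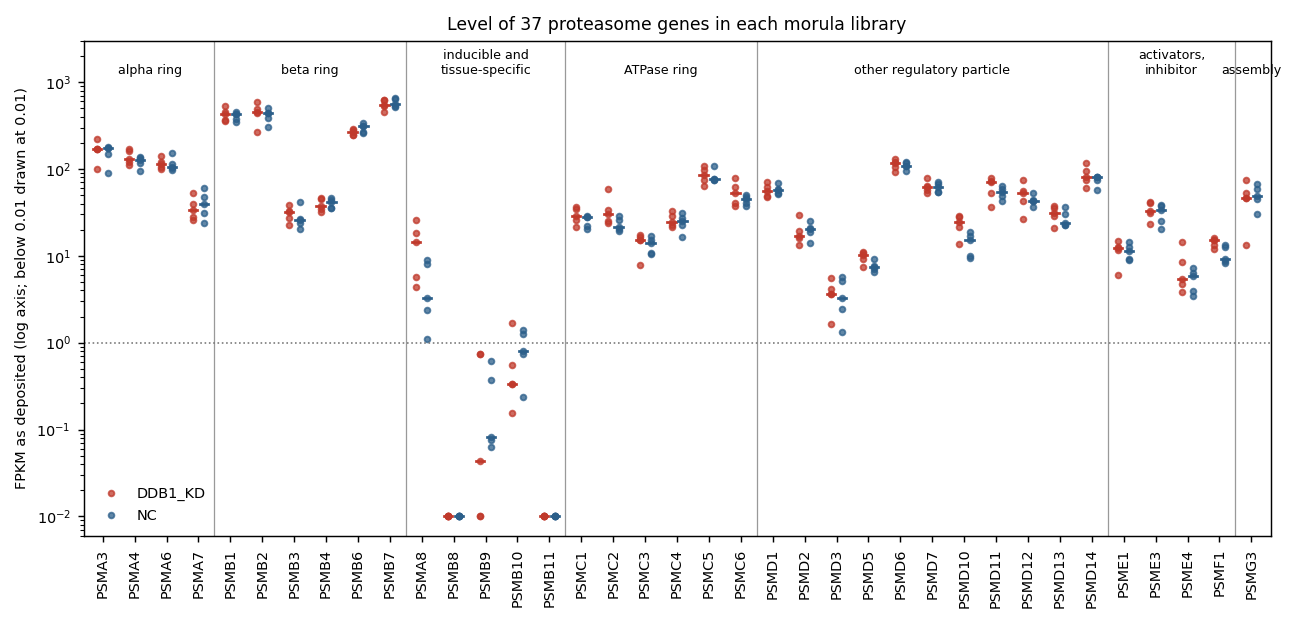
FPKM as deposited (log axis) of the 37 proteasome genes in 5 DDB1_KD and 5 NC libraries, grouped by class, with bars at the group medians and a dotted line at 1 FPKM. Every class but the inducible and tissue-specific core lies above the line in all libraries, and PSMB8 and PSMB11, which have no count, are drawn at the lower edge.

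No proteasome gene passed the test between DDB1_KD and NC, of 33 tested, against 0% of all genes. By unadjusted p, 4 of the 33 were under 0.05 (12.1%, against 2.89% of all genes): PSMA8, PSMC2, PSMD10 and PSMF1, each with a higher value in DDB1_KD, a direction that 1.76% of all genes shared at that p. In edgeR's quasi-likelihood test the adjusted p was 0.977 for these 4 and at most 0.992 for any other proteasome gene. The log2 fold changes given here come from that fit, each with its SE. The FPKM of the groups overlapped for all 33, whereas for 35 of all genes (0.413%) they did not. The count of 4 was 1 when DDB1_KD replicate 2 or NC replicate 1 was left out, 2 without DDB1_KD replicate 3, DDB1_KD replicate 5, NC replicate 2 or NC replicate 5, and 3 to 5 without any of the others.

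Most classes had slightly higher values in DDB1_KD, with libraries of the groups overlapping in each class. The fitted value was higher in DDB1_KD for 26 of the 33 proteasome genes, against 50.0% of all genes, and for 25 to 27 under the other scalings, tests and filters. The median log2 fold change was 0.12 (range -0.17 to 1.54) against 0.00 for all genes. The mean log2 CPM (counts scaled to library size by edgeR) of the 33 genes was 7.23, 7.43, 7.44, 6.995 and 7.204 in DDB1_KD replicates 1 to 5 and 7.06, 7.01, 7.23, 7.16 and 6.98 in NC replicates 1 to 5. DDB1_KD replicates 2 and 3 stood above the controls, DDB1_KD replicate 1 level with the highest control and DDB1_KD replicate 4 among the lowest, so the groups overlapped. The group means were 7.26 ± 0.18 and 7.09 ± 0.10 (SD, n = 5), a difference of 0.17, or 0.13 with PSMA8 left out. Over all genes tested the same mean differed by -0.04. Of the 26 genes with a higher value, 16 had a log2 fold change more than 1.5 times smaller, or below 0, when DDB1_KD replicate 2 was left out. The difference in group means was 0.13 without that library, but 0.24 without DDB1_KD replicate 4.

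On the log2 CPM scale, the extreme values fell in a few libraries. DDB1_KD replicates 2 and 3 held the highest value of 22 of the 33 genes (66.7%, against 26.3% of all genes). DDB1_KD replicate 4 and NC replicate 5 held the lowest value of 16 (48.5%, against 22.8% of all genes). These counts depended on the scale. DDB1_KD replicate 4 held the highest log2 CPM of 1 gene, but the highest FPKM of PSMC1, PSMC4, PSMD1 and PSMD2. DDB1_KD replicate 5 held the lowest log2 CPM of 4 genes, but the lowest FPKM of PSMB4, PSMC3, PSMC5, PSMD7, PSMD11, PSMD13 and PSME1. DDB1_KD replicates 2 and 3 also had the highest summed oocyte markers, 386 and 138 FPKM, and the lowest level of the epithelial keratin KRT8, 0.0754 and 4.44 FPKM against 33.9 to 179 FPKM in the other libraries. KRT18, its partner, had 3.71 and 12.6 FPKM there against 108 to 453 FPKM elsewhere. Not every embryo marker was low there. GATA3 was lowest in DDB1_KD replicate 2, but CDH1, also epithelial, and NANOG were highest in that library, with 39.7 and 11.2 FPKM. In DDB1_KD replicate 3 these genes lay within the range of the other libraries. SALL4, TFAP2C and DPPA2 did so in both replicates. The part of these marker differences in the proteasome values was not tested.

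**Figure D2:**
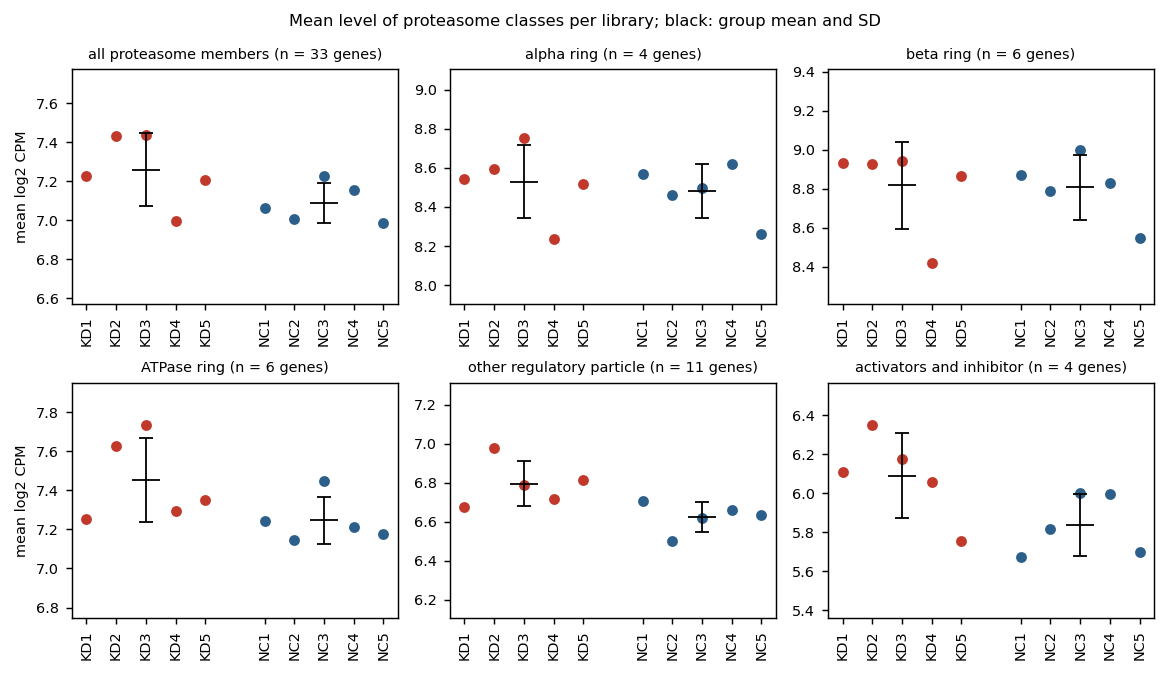
Mean log2 CPM of the proteasome genes over the filter and of 5 of their classes in each library, with the group mean and SD in black; every panel spans the same range on its y axis. DDB1_KD and NC overlap in each panel, and DDB1_KD replicate 4 is the lowest library of both core rings.

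The alpha ring, which forms the outer rings of the core and its gate, had 4 members in the tables under a symbol. PSMA3 had the highest level, with 171, 220, 172, 98.8 and 170 FPKM in DDB1_KD replicates 1 to 5 and 175, 180, 175, 150 and 91.1 FPKM in NC replicates 1 to 5. The low libraries, DDB1_KD replicate 4 and NC replicate 5, lay one in each group. PSMA4 had 139 ± 25.5 FPKM in DDB1_KD against 122 ± 16.7 in NC (SD, n = 5), with the smallest p of the ring at a log2 fold change of 0.19 (SE 0.19). PSMA6 had 116 ± 14.9 and 115 ± 22.0 FPKM. PSMA7, the subunit that PSMA8 can replace, was lower at 36.0 ± 10.9 and 40.7 ± 14.6 FPKM, with a log2 fold change of -0.16 (SE 0.25). Of the 4 members, 3 had a higher and 1 a lower fitted level after DDB1 siRNA, and the median log2 fold change was 0.07.

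In the beta ring, the inner rings with the active sites, 6 members had a symbol and the values were divided, 3 higher and 3 lower, with a median of 0.03. PSMB7, the trypsin-like catalytic subunit, was the most abundant proteasome gene with 615, 622, 455, 539 and 529 FPKM in DDB1_KD replicates 1 to 5 and 655, 538, 560, 641 and 513 FPKM in NC replicates 1 to 5. The ranges of the groups overlapped, and its log2 fold change was -0.07 (SE 0.16). PSMB6, the caspase-like catalytic subunit, had 265 ± 19.4 FPKM in DDB1_KD against 299 ± 33.2 in NC, with the smallest p of the ring at a log2 fold change of -0.17 (SE 0.15). PSMB6 also had the lowest coefficient of variation of all proteasome genes, 21.2%. The structural subunits PSMB2 and PSMB1 had 447 ± 115 and 430 ± 73.1 FPKM in DDB1_KD and 414 ± 72.9 and 407 ± 41.5 FPKM in NC. PSMB3 had 30.6 ± 5.91 and 27.7 ± 8.01 FPKM (log2 fold change 0.17, SE 0.22).

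The core subunits, which a barrel holds in equal number, did not have equal levels in FPKM. Of the 10 listed under a symbol, the 5 whose main isoform was listed with fewer than 3000 bases had 160 to 567 FPKM, and the 5 with 3000 bases or more had 29.2 to 131 FPKM. In estimated counts, which are not divided by length, the first 5 had 206222 to 358400 over the 10 libraries and the others 63515 to 183103. The listed lengths ran from 1075 bases for PSMB7 to 5626 bases for PSMB4. Of the 4 core subunits listed under an identifier only, PSMA1 (1570 bases) had 288 FPKM, PSMA5 (5318 bases) 76.0 FPKM and PSMB5 (5501 bases) 21.3 FPKM. PSMA2 lay apart from that order, with 182 FPKM and 344717 counts at a listed length of 4310 bases. The part of the listed length in the levels was not tested.

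Among the inducible and tissue-specific core subunits, PSMA8 was the 1 of 5 over the filter. PSMA8, known in mouse as the alpha subunit of the testis proteasome, lies at chr6:110799537-110836545 (pig build susScr11, forward strand; ENSSSCG00000003717). It had 14.5, 18.3, 25.7, 4.32 and 5.71 FPKM in DDB1_KD replicates 1 to 5 and 1.11, 2.39, 8.03, 9.02 and 3.29 FPKM in NC replicates 1 to 5. DDB1_KD replicates 1 to 3 stood above every control, while DDB1_KD replicates 4 and 5 lay within the controls. The means were 13.7 ± 8.93 and 4.77 ± 3.53 FPKM (SD, n = 5), with a log2 fold change of 1.54 (SE 0.64, edgeR, adjusted p = 0.977). Leaving out 1 library at a time gave 1.16 to 1.95, with an unadjusted p under 0.05 in 5 of the 10 fits. Its coefficient of variation, 68.8%, was the highest of the 33.

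Set against PSMA7, PSMA8 made up 29.9%, 41.7%, 39.6%, 7.53% and 16.8% of their summed FPKM in DDB1_KD replicates 1 to 5 and 2.26%, 9.10%, 16.9%, 22.7% and 5.11% in NC replicates 1 to 5. Again DDB1_KD replicates 1 to 3 were high and the other libraries overlapped. FPKM is relative to length, and PSMA8 is listed with 753 bases and the main PSMA7 isoform with 5091. In estimated counts, which are not divided by length, PSMA8 had 112 to 859 per library in DDB1_KD and 31 to 362 in NC. PSMA7 had 5820 to 9363 and 5586 to 15775. The part of the listed length in these shares was not tested. The genes are paralogs, and how reads shared by them were divided is not stated in the labels or headers.

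The immunoproteasome subunits, which interferon induces and which replace the catalytic ones in immune cells, each averaged below 1 FPKM. PSMB8 had no count in any library, and neither had PSMB11, the thymus subunit; a count of 0 allows up to 3 counts per library. PSMB9 had 0 to 45 counts per library and at most 0.747 FPKM. PSMB10 had 0.612 ± 0.613 FPKM in DDB1_KD against 0.894 ± 0.466 in NC (39 to 458 counts per library). It reached 1.68 FPKM in DDB1_KD replicate 5 and 1.41 and 1.27 FPKM in NC replicates 1 and 3. PSMB9 made up at most 0.278% of its sum with PSMB6, and PSMB10 at most 0.317% of its sum with PSMB7. PSMB8 and PSMB9 overlap each other on opposite strands.

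The ATPase ring, which unfolds substrates and drives them into the core, had 6 of 6 members over the filter and 6 with a higher value in DDB1_KD, by 0.06 to 0.57 on the log2 scale (median 0.17). PSMC5 was the most abundant, with 85.3 ± 17.1 FPKM in DDB1_KD against 82.3 ± 14.1 in NC. PSMC6 had 40.4, 78.3, 53.5, 37.5 and 62.8 FPKM in DDB1_KD replicates 1 to 5 and 40.2, 48.0, 45.0, 49.9 and 37.2 FPKM in NC replicates 1 to 5. DDB1_KD replicates 2, 3 and 5 were above every control, and its log2 fold change was 0.31 (SE 0.23), or 0.18 without DDB1_KD replicate 2.

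PSMC2 (ENSSSCG00000015424, chr9:103362433-103378926, forward strand) had the smallest p of the ring. It had 25.01, 59.1, 34.2, 23.6 and 30.0 FPKM in DDB1_KD replicates 1 to 5 and 21.5, 25.7, 29.0, 20.3 and 19.1 FPKM in NC replicates 1 to 5. DDB1_KD replicate 2 was far above all others and DDB1_KD replicates 1 and 4 lay within the controls. The log2 fold change was 0.57 (SE 0.25, edgeR, adjusted p = 0.977). It was 0.33 without DDB1_KD replicate 2 and 0.70 without DDB1_KD replicate 4, and 4 of the 10 such fits had an unadjusted p under 0.05. PSMC1, PSMC3 and PSMC4 had mean levels of 13.9 to 27.5 FPKM over the 10 libraries and log2 fold changes of 0.22, 0.12 and 0.10.

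The other members of the regulatory particle comprise its scaffold, its lid and the chaperones that build its base. Of the 11, 9 had a higher and 2 a lower fitted level after DDB1 siRNA, the median being 0.17 on the log2 scale; with DESeq2 or its size factors PSMD1 turned to 0.0050. The lid subunit PSMD6 was the most abundant, at 113 ± 14.6 FPKM in DDB1_KD against 110 ± 9.97 in NC. PSMD14, the deubiquitinase that cuts the chain off the substrate, had 74.8, 118, 81.0, 60.7 and 93.9 FPKM in DDB1_KD replicates 1 to 5 and 74.9, 80.5, 81.1, 80.5 and 57.3 FPKM in NC replicates 1 to 5. DDB1_KD replicates 2 and 5 exceeded every control, and the log2 fold change was 0.20 (SE 0.21), or 0.09 without DDB1_KD replicate 2. Its partner in the lid, PSMD7, had 62.9 ± 9.45 and 61.8 ± 7.90 FPKM. The scaffold subunits PSMD1 and PSMD2 were the 2 members with a lower value, at log2 fold changes of -0.01 and -0.08. PSMD3, PSMD11, PSMD12 and PSMD13, all of the lid, had log2 fold changes of 0.06, 0.21, 0.22 and 0.17, and of 0.03, 0.13, 0.08 and 0.11 without DDB1_KD replicate 2.

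The base chaperones PSMD10 and PSMD5 had the smallest p of this class. PSMD10, also known as gankyrin, lies at chrX:88536446-88548688 on the reverse strand (ENSSSCG00000033180). It had 13.8, 28.6, 28.2, 24.7 and 21.4 FPKM in DDB1_KD replicates 1 to 5 and 16.9, 15.4, 19.1, 10.0 and 9.57 FPKM in NC replicates 1 to 5. DDB1_KD replicates 2 to 5 lay above every control, and DDB1_KD replicate 1 within them. The means were 23.3 ± 6.06 and 14.2 ± 4.22 FPKM, with a log2 fold change of 0.72 (SE 0.25, edgeR, adjusted p = 0.977). Among the 4 genes PSMD10 alone kept an unadjusted p under 0.05 in all 10 fits that left out 1 library (log2 fold change 0.59 to 0.87). A gene on the other strand, ATG4A, overlaps PSMD10 with a mean of 6.73 FPKM, and the strand setting of the counting is not stated in the labels or headers.

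PSMD5 had 7.54, 11.04, 9.30, 10.2 and 10.9 FPKM in DDB1_KD replicates 1 to 5 and 6.55, 7.52, 7.55, 9.13 and 7.12 FPKM in NC replicates 1 to 5. Here too DDB1_KD replicates 2 to 5 exceeded every control, and the log2 fold change was 0.37 (SE 0.20). With PSMD5 and PSMD10 counted among the assembly factors, the mean log2 CPM of the remaining regulatory particle members differed by 0.09 between the groups in place of 0.17. PAAF1, another base chaperone outside the name pattern, had 26.7 FPKM in DDB1_KD against 24.6 in NC with a log2 fold change of 0.13 (SE 0.24).

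**Figure D3:**
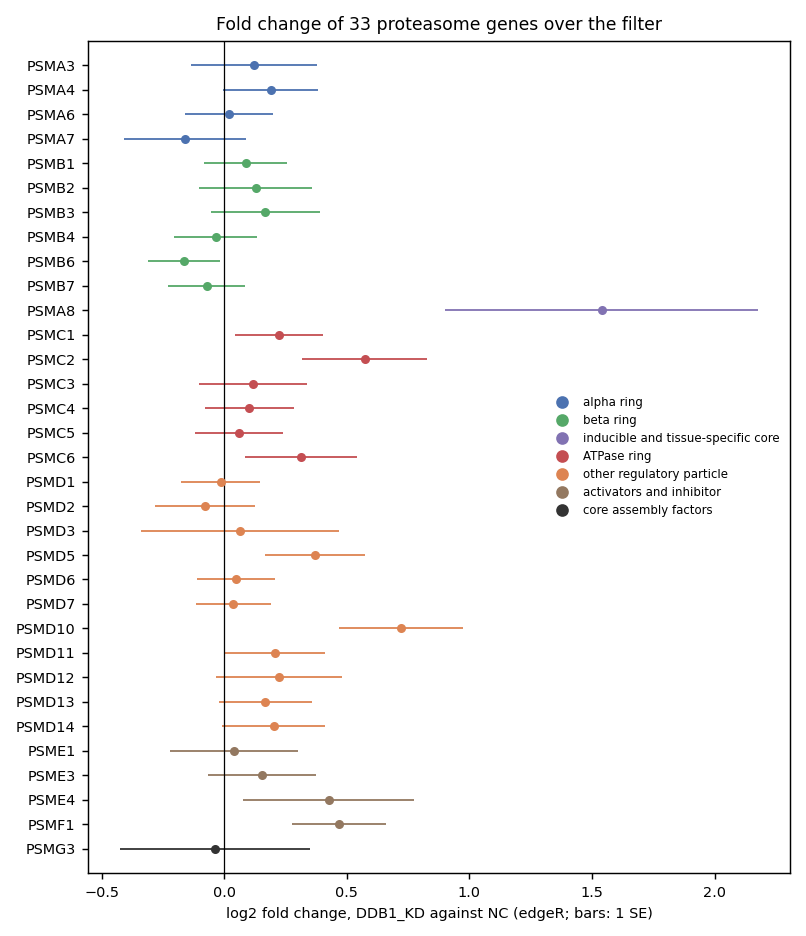
Fitted log2 fold change of DDB1_KD against NC with 1 SE for the 33 proteasome genes over the filter, coloured by class. The points lie between -0.17 and 1.54, PSMA8 being farthest from 0 with the widest bar.

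The activators and the inhibitor had 4 members under a symbol, all with a higher fitted level after DDB1 siRNA (median 0.29 on the log2 scale), but PSME1 turned to -0.0014 in limma with 0.1 added to FPKM. PSME1, a subunit of the interferon-induced activator ring, had 11.5 ± 3.31 FPKM in DDB1_KD against 11.2 ± 2.30 in NC, with EMC9 on the other strand at 12.8 FPKM. PSME3, which forms the nuclear activator, had 34.1 ± 7.55 and 31.1 ± 7.88 FPKM (log2 fold change 0.15, SE 0.22). PSME4, the single-chain activator PA200 that is known for histone degradation in mouse testis, had 3.84, 14.4, 5.47, 8.57 and 4.74 FPKM in DDB1_KD replicates 1 to 5 and 3.89, 7.25, 6.40, 5.83 and 3.43 FPKM in NC replicates 1 to 5. DDB1_KD replicate 2 stood apart, and the log2 fold change of 0.43 (SE 0.35) was 0.07 without it.

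PSMF1 (ENSSSCG00000038854, chr17:34098991-34164748, reverse strand) encodes PI31, found as an inhibitor of the core particle in vitro. It had 13.5, 15.9, 12.0, 15.2 and 15.1 FPKM in DDB1_KD replicates 1 to 5 and 9.32, 8.22, 8.66, 12.6 and 13.3 FPKM in NC replicates 1 to 5. Of the DDB1_KD libraries, 4 lay above every control and replicate 3 did not. The means were 14.3 ± 1.57 and 10.4 ± 2.35 FPKM, with a log2 fold change of 0.47 (SE 0.19, edgeR, adjusted p = 0.977). Without any 1 library it lay between 0.40 and 0.58, with an unadjusted p under 0.05 in 5 of the 10 fits.

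**Figure D4:**
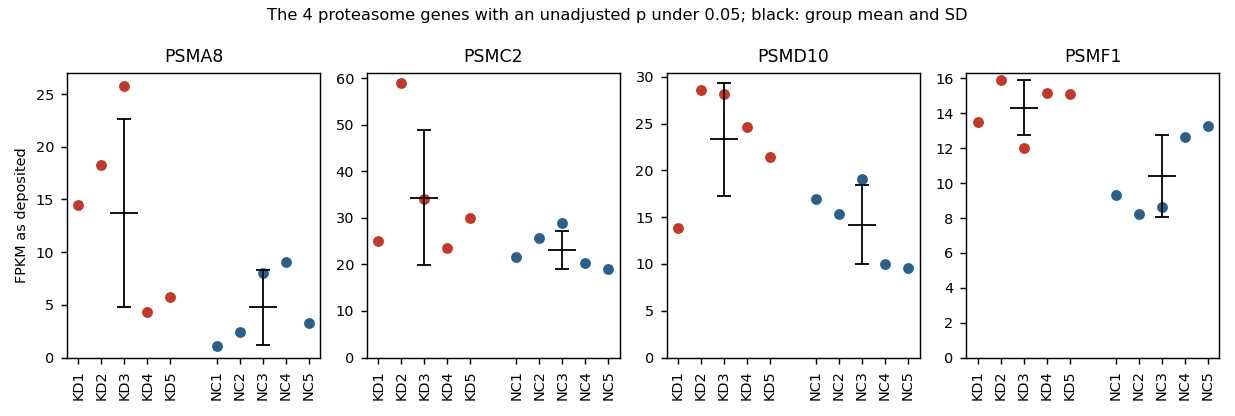
FPKM as deposited of PSMA8, PSMC2, PSMD10 and PSMF1 in each library, with the group mean and SD in black and y axes from 0. At least 1 DDB1_KD library lies within the range of the controls for each gene, and DDB1_KD replicate 2 is the highest library for PSMC2, PSMD10 and PSMF1.

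Of the PSMG chaperones that assemble the core, PSMG3 was the 1 listed under its symbol. It had 47.0, 45.9, 74.5, 13.2 and 53.4 FPKM in DDB1_KD replicates 1 to 5 and 45.5, 48.5, 67.0, 30.6 and 58.1 FPKM in NC replicates 1 to 5. DDB1_KD replicate 4 was the lowest by far, and the remaining libraries of the groups interleaved. Its log2 fold change was -0.04 (SE 0.39) and 0.21 without DDB1_KD replicate 4. PSMC3IP, which is not a proteasome subunit, had 11.3 ± 3.55 and 13.2 ± 3.68 FPKM (log2 fold change -0.22, SE 0.28), with MLX on its other strand at 27.5 FPKM. In all, 16 of the 38 members overlap a gene on the other strand.

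The name pattern missed 10 further proteasome genes that the tables list under an Ensembl identifier only, and 9 of them passed the filter. Of these 9, 4 had a higher and 5 a lower fitted level after DDB1 siRNA (median -0.03 on the log2 scale), none with an unadjusted p under 0.05. PSMA1 and PSMA2 of the alpha ring had mean levels of 288 and 182 FPKM over the 10 libraries. PSMB5, the chymotrypsin-like catalytic subunit, had 19.9 ± 3.73 FPKM in DDB1_KD against 22.8 ± 2.36 in NC (log2 fold change -0.19, SE 0.16). The core chaperones PSMG2 and PSMG4 had log2 fold changes of 0.37 (SE 0.26) and -0.34 (SE 0.22), and PSME2, the partner of PSME1, averaged 0.992 FPKM. With these 9 added, 30 of 42 genes had a higher value in DDB1_KD and the difference in mean log2 CPM was 0.14 in place of 0.17. These 42 do not include SEM1 and ADRM1, regulatory particle subunits whose names lie outside the pattern. Their log2 fold changes were -0.01 (SE 0.26) and -0.14 (SE 1.05). No row was taken for PSMG1.

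The isoforms gave no call either. Of the members' isoforms, 49 passed the filter and none had an adjusted p under 0.05, against 1 of 11250 isoforms tested (0.00889%). By unadjusted p, 6 of the 49 were under 0.05 (12.2%, against 3.36% of all isoforms tested), and 4 of those 6 had counts in fewer than 5 libraries. The isoform table held more than 1 isoform for 22 members. One isoform held over 90% of the gene's counts in 14 of the 21 of these with counts.

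Among the 11 members with at least 2 isoforms over the filter, the leading isoform held, over the 10 libraries, 82.2% of the counts of PSMB1, 99.1% of PSMC6, 96.3% of PSMD7, 95.0% of PSMD10, 87.5% of PSMD13, 86.7% of PSMD14, 93.7% of PSMF1 and 93.4% of PSMG3. It held less for PSMC5 (48.5%), PSMD2 (66.4%) and PSME4 (54.6%). In 15 of the 19 members with several isoforms listed and at least 1 over the filter, the same isoform led in all 10 libraries, and in PSMC5, PSMD2, PSME4 and PSMG3 it did not. The leading PSMD10 isoform, ENSSSCT00000058491 with 5 exons, had a log2 fold change of 0.84 (SE 0.26, edgeR, adjusted p = 0.9997), close to that of the gene.

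The isoform shares of a few members differed between libraries, and for PSMD2 and PSME4 almost completely. For PSMD14, the isoform ENSSSCT00000054285 (11 exons) held 46.1% and 45.1% of the counts in DDB1_KD replicates 1 and 3 and 0.191% to 1.20% in the other 8 libraries. Another, ENSSSCT00000017304, had counts in NC replicates 2, 4 and 5 only, with 10.3%, 17.6% and 7.93%. For PSMD2, ENSSSCT00000043727 (21 exons) held 97.2%, 16.4%, 89.3%, 38.2% and 97.4% in DDB1_KD replicates 1 to 5 and 17.004%, 24.2%, 98.5%, 86.2% and 83.04% in NC replicates 1 to 5. High and low shares thus occurred in both groups. A further PSMD2 isoform, ENSSSCT00000024405, was found in DDB1_KD replicate 4 alone, with 38.9%.

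For PSME4, the isoform ENSSSCT00000048172 held 73.4%, 10.7%, 3.43%, 100% and 100% in DDB1_KD replicates 1 to 5 and 7.70%, 100%, 99.5%, 14.1% and 96.4% in NC replicates 1 to 5. In DDB1_KD replicate 2, where the gene's level was highest, ENSSSCT00000009212 held 88.3%, and it had no count in any other library. For PSMC5, ENSSSCT00000054038 held 36.2% to 66.9% in 9 libraries and had no count in DDB1_KD replicate 4. A PSMC6 isoform, ENSSSCT00000005554, had counts in DDB1_KD replicates 3 and 4 only, with 3.99% and 8.34%. The isoforms ENSSSCT00000009212 and ENSSSCT00000005554 had no count in any NC library, so no fold change is given for them.

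**Figure D5:**
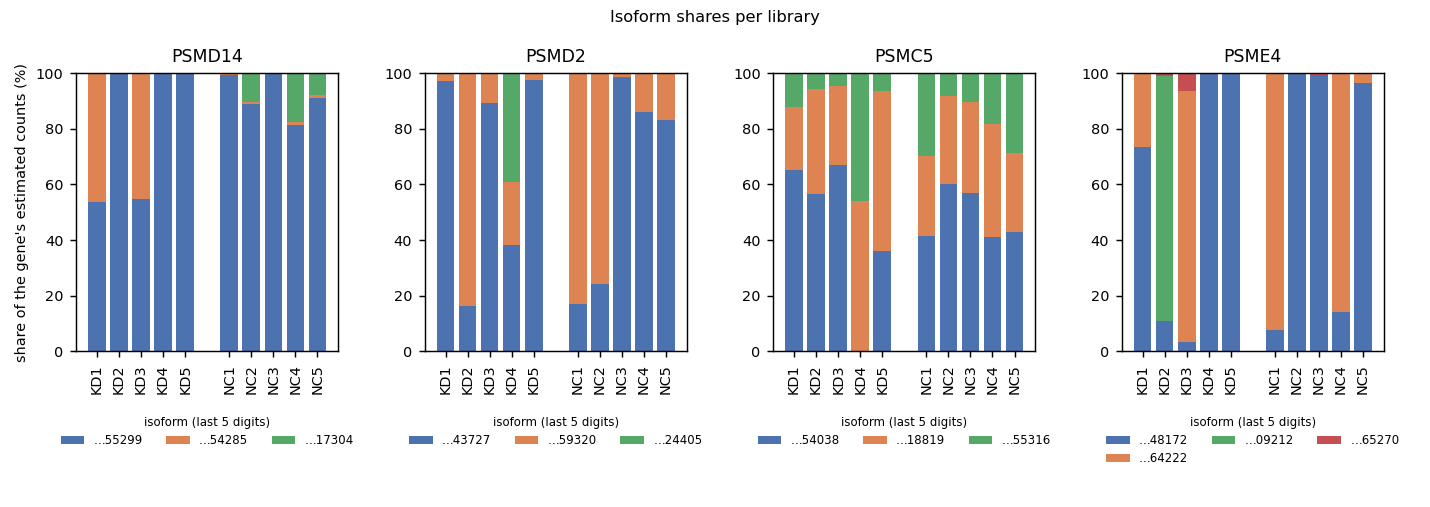
Share of the gene's estimated counts (percent) held by each isoform of PSMD14, PSMD2, PSMC5 and PSME4 in the 5 DDB1_KD (KD1 to KD5) and 5 NC libraries; colours mark isoforms by the last 5 digits of their identifiers. Libraries with different leading isoforms occur in both groups for PSMD2 and PSME4, and PSMD14 ENSSSCT00000054285 is large in DDB1_KD replicates 1 and 3.

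Genes that work with the proteasome were read from a list of 38: ubiquitin genes, ubiquitin-activating enzymes, shuttle factors, ligases and deubiquitinases of the particle, and regulators of its synthesis and assembly. The list also held the subunits SEM1 and ADRM1. Of these, 36 were found and 35 tested, and none passed the test; SYVN1 stood in the table a second time, under the filter, and its row with most counts was used. The fitted value was higher in DDB1_KD for 7 (20%, against 50.0% of all genes) and lower for 28, the median log2 fold change being -0.18. The FPKM of the groups overlapped for all 35, whereas for 0.413% of all genes they did not. ECPAS, a scaffold that binds the proteasome, was the 1 gene of the 35 with an unadjusted p under 0.05 (2.86%, against 2.89% of all genes), a share like the background. It had 4.54, 4.20, 5.37, 7.02 and 4.69 FPKM in DDB1_KD replicates 1 to 5 and 8.31, 7.43, 6.71, 5.58 and 6.69 FPKM in NC replicates 1 to 5 (log2 fold change -0.43, SE 0.19, edgeR, adjusted p = 0.977). DDB1_KD replicate 4 lay within the controls, and the other DDB1_KD libraries below all of them.

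For FAF1, an adaptor of the segregase VCP, the log2 fold change was -0.64 (SE 0.34). It had its highest level of all libraries, 10.5 FPKM, in DDB1_KD replicate 4. The other DDB1_KD libraries had 2.49 to 4.05 FPKM, below the 6.08 to 8.62 FPKM in NC. The ligase SYVN1 and the shuttle factors UBQLN4 and UBQLN1 had -0.29, -0.53 and -0.23. AKIRIN2, which brings proteasomes into the nucleus, had 376 FPKM in DDB1_KD replicate 2 and 39.7 to 108 FPKM in the other 9 libraries (log2 fold change 0.76, SE 0.57). Of the other list members, chosen for their role after their values were seen, POMP, which matures the core, had 501 FPKM in DDB1_KD against 602 in NC. NFE2L1, the transcription factor that drives proteasome genes when the particle is inhibited, had 3.79 and 4.23 FPKM with a log2 fold change of -0.16 (SE 0.24).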

How the data were processed

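RNA of 10 pig morula libraries was analysed, 5 DDB1_KD and 5 NC. Per the labels' protocols, cDNA was fragmented enzymatically and sequenced in pairs. The submitters' processing notes name the build susScr11 and the tools edgeR, StringTie, HISAT2, fastp, ChIPseeker and HOMER, without versions or roles. The deposited gene and isoform tables hold FPKM and estimated counts, per the file headers. The counts are whole numbers, were used as deposited, and summed over isoforms to the gene count for all 24358 genes. A count of 0 is listed as 0.0001 FPKM. How FPKM and strand were handled is not stated in the labels or headers.

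Members were taken by gene name, and 10 proteasome genes under an identifier were named through Ensembl or NCBI gene identifiers and kept apart. The members and lists were chosen with earlier results of these data known. Named are, in each class, the 3 members of highest mean FPKM, the 2 of smallest p, PSMA7, PSMA8, PSMB5 to PSMB11, PSME1 to PSME4, PSMF1, PSMG1 to PSMG4, members without overlap, DDB1, up to 6 partner genes of smallest p, the leading isoforms and the 5 isoforms of smallest p. Other genes named were chosen after their values were seen. Genes and isoforms with a mean of at least 1 FPKM (8476 and 11250) were tested with edgeR 4.0.16 (R 4.3.3), quasi-likelihood, TMM scaling, no covariate, Benjamini-Hochberg adjustment over all tested and a threshold of 0.05. Log2 CPM used a prior count of 2. Isoform shares are shares of the gene's estimated counts. The procedure was tested on simulated data. Alternatives were limma 3.58.1 on log2(FPKM + 1) and log2(FPKM + 0.1), no filter, other size factors, total counts, DESeq2 1.42.0, a replicate block and leaving out each library. The tables' precision covers the spread between libraries and, for counts of 0, counting error only.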

Additional observations from a re-analysis of the deposited data

Results flagged for a closer look

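In each group of 5 the highest and lowest FPKM of every member over the filter was set against the rest by Dixon's rule, in 68 groups. Chance flags about 1 in 20 groups, and 4 were flagged. PSMB3, a beta ring subunit, had 41.37 FPKM in NC replicate 3, next to 26.57 FPKM in the second highest control. PSMC5, of the ATPase ring, had 107.5 FPKM in the same library, next to 77.5 FPKM. PSMC3, also of the ATPase ring, had 7.835 FPKM in DDB1_KD replicate 5, the lowest of its group, next to 15.11 FPKM. PSMD14, the deubiquitinase of the lid, had 57.3 FPKM in NC replicate 5, the lowest control, next to 74.88 FPKM.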

How the results depend on the processing

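No member passed the test in any of the 17 other fits of genes (smallest adjusted p 0.469), and 22 of the 34 members over the filter kept their direction in all of them. Of all genes, 2 passed with DESeq2, and 0 with edgeR or limma. Of all isoforms, 1 passed as reported, 0 without a filter, 0 with the replicate block and 0 to 2 with 1 library left out. The count of proteasome genes at an unadjusted p under 0.05 was 1 to 5 with 1 library left out. Direction turned for PSMD1 with size factors (0.0050) and DESeq2 (0.0050), and for PSME1 in limma with 0.1 added to FPKM (-0.0014). Leaving out 1 library turned it for 12 members. With all libraries their log2 fold changes lay between -0.161 (PSMA7) and 0.1221 (PSMA3). With 1 left out they ran from -0.0312 to 0.2831 for PSMA3, -0.0365 to 0.1743 for PSMA6 and -0.2851 to 0.0019 for PSMA7. For PSMB4 they ran from -0.1164 to 0.0353 and for PSMC5 from -0.0522 to 0.1624. In the regulatory particle they ran from -0.0726 to 0.0675 for PSMD1, -0.2327 to 0.0198 for PSMD2, -0.1202 to 0.2757 for PSMD3, -0.0069 to 0.1222 for PSMD6 and -0.0288 to 0.0993 for PSMD7. For PSME1 they ran from -0.0778 to 0.1939 and for PSMG3 from -0.2790 to 0.2116. Leaving out some library moved the log2 fold change by over 1.5 times for 28 of the 33 proteasome genes, and none did so for the other 5: PSMA8, PSMB6, PSMD5, PSMD10 and PSMF1. The differences between group means of the classes moved by less than 1 SD, although those of the alpha ring (-0.0070 without NC replicate 5), the beta ring (-0.0547 without NC replicate 5) and PSMG3 (0.2110 without DDB1_KD replicate 4) changed sign. Samples with the same replicate number deviated little together, except for number 3 (r = -0.06, 0.13, 0.35, -0.05 and -0.14 for numbers 1 to 5). Only for number 3 was each library the closest to the other among the libraries of the opposite group. The numbers were not taken as pairs, and with the replicate block 0 genes passed. The cause of these shifts was not tested.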
